A study of Mus musculus with 21 samples.

Results

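The 10 genes described here encode lipid droplet and fatty acid binding proteins, and were chosen by symbol: Plin2, Plin3, Hilpda, Pnpla2, Dgat1, Dgat2, Acsl1, Fabp3, Fabp5 and Fabp7. All 10 matched a mouse Ensembl identifier in the deposited tables, which hold 55401 genes, and all 10 passed the filter on low counts in each of the 13 comparisons. RNA was measured in the forebrains of 21 mice in 6 groups. E2H, E3H and E4H mice (3 each) carry human APOE2, APOE3 or APOE4 on both alleles in place of mouse Apoe, on a C57BL6 background, and were 9 to 10 months old. The groups PS/E2H (APOE2), PS/E3H (APOE3) and PS/E4H (APOE4), of 4 mice each, carry the same APOE alleles together with 1 copy of the PS19 transgene, which encodes human tau with the P301S mutation. PS19 mice came from a B6/C3H stock crossed into the APOE lines for 2 generations, and were killed when their hindlimbs were paralyzed. All 6 groups therefore lack mouse Apoe. Tau genotype, paralysis, age at death and the residual C3H genome cannot be told apart in the comparisons of PS19 with parental mice. The study reports later paralysis in PS/E3H than in PS/E2H or PS/E4H mice. APOE line and age at death therefore cannot be told apart among PS19 mice.

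Neutral lipid is stored in droplets, which have a core of triglyceride and sterol ester under a coat of perilipin proteins. Acyl-CoA synthetases activate fatty acids, diacylglycerol acyltransferases join them to glycerol for storage, and lipases at the droplet surface release them again. In brain, droplets are known mainly from glia and ependymal cells, and fatty acid binding proteins ferry lipid through the cytosol of neurons, astrocytes and radial glia. APOE carries lipid between brain cells, and the comparisons ask how these genes differ between APOE isoforms and between PS19 mice and their parental lines.

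Total counts per mouse ranged from 59265459 to 75932183, and no 2 mice of a group had identical counts. Xist counts exceeded Ddx3y counts in 17 mice and the reverse held in 4 (E4H replicate 3, PS/E2H replicate 2, and PS/E4H replicates 1 and 4). The study's methods place the same numbers of exceptions in the same groups but give the majority as male, so the sex labels and these transcripts point in opposite directions. The 4 mice were kept. Values without them stand beside the pooled and APOE4-line results, and for other comparisons the fits without them are among the alternatives near the end. PS/E2H replicate 4 stood apart for several genes below.

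The promoters of Plin2, Plin3 and Pnpla2 are shown because these were the members that rose in PS19 mice. Each is the 250 bases before the RefSeq start site on GRCm38.p6, read 5′ to 3′ along the gene: Plin2 on the minus strand at chr4:86670060-86670309, Plin3 on the minus strand at chr17:56290512-56290761, and Pnpla2 on the plus strand at chr7:141454938-141455187. The Plin3 window lies within the GENCODE gene but in no annotated exon, since another annotated transcript starts upstream of it. Capitals mark 2 motifs on either strand, AGGTCA, the half-site read by PPAR and other nuclear receptors, and GGGCGG, the GC box.
Plin2: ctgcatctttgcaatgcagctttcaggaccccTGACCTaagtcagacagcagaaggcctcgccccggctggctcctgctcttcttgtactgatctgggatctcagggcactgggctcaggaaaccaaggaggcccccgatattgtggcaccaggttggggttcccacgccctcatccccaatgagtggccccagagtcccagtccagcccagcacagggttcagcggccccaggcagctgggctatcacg
Plin3: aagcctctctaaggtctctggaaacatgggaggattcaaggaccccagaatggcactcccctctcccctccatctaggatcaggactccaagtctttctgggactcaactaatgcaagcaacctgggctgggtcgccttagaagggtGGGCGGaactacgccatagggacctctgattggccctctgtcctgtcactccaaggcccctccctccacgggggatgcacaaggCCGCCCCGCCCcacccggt
Pnpla2: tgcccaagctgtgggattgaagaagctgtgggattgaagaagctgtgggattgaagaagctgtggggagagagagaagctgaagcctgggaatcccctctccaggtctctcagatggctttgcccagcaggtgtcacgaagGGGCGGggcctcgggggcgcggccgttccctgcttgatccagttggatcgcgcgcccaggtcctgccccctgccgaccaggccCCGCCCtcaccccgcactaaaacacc
The Plin2 window held 1 AGGTCA match on the opposite strand, 218 bases before the start, and no GC box. The windows of Plin3 and Pnpla2 held GC boxes and no AGGTCA. Among 32851 windows of the same length, 14% held AGGTCA and 32.7% held GGGCGG. None of the 3 held CACGTG, the E-box (6.02% of windows), its shorter overlapping form ACGTG, the core of hypoxia response elements (16.6%), AGAACA, the glucocorticoid receptor half-site (16.1%), or a direct repeat of AGGTCA with a 1-base spacer (0.0335%). Over the 9 windows of the 7 members with one (Plin2, Plin3, Hilpda, Pnpla2, Acsl1, Fabp3 and Fabp7), AGGTCA was found in Plin2 and Fabp7, ACGTG only in Hilpda, and GGGCGG in Acsl1, Hilpda, Plin3 and Pnpla2. A match is a stretch of letters and no evidence of binding. Fabp5, Dgat1 and Dgat2 were not in the table.

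Levels between genes were compared as FPKM, the authors' length-scaled unit, averaged over the 21 mice. Fabp3, the heart-type fatty acid binding protein found in neurons, had the highest mean FPKM of the 10 genes at 59.1. It was followed by the epidermal type Fabp5 at 20.2, the acyltransferase Dgat2 at 20.02 and the brain type Fabp7, an astrocyte and radial glial gene, at 16.2. The other 6 genes were lower. Mean FPKM was 8.26 for Pnpla2 (adipose triglyceride lipase), 5.98 for Dgat1, 4.90 for Plin3, 4.29 for the acyl-CoA synthetase Acsl1, 3.48 for Hilpda, a hypoxia-induced inhibitor of Pnpla2, and 2.92 for Plin2, a coat protein that accumulates with stored lipid. Below, values between mice are CPM, read counts divided by the TMM-scaled library size, which are not comparable between genes of different length. Of the 50-base windows in the Fabp3 transcript, 37.3% recur in other annotated genes (the pseudogene Fabp3-ps1 and the antisense neighbours Gm10570 and Zcchc17), and whether the counting used strand is not given in the sources used here. Fabp3 values are therefore uncertain. The share was 9.23% for Acsl1, which overlaps the antisense gene Gm45244, 5.48% for Fabp5, 2.57% for Plin2, 1.2% for Plin3 and 0 for the other members.

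**Figure D1:**
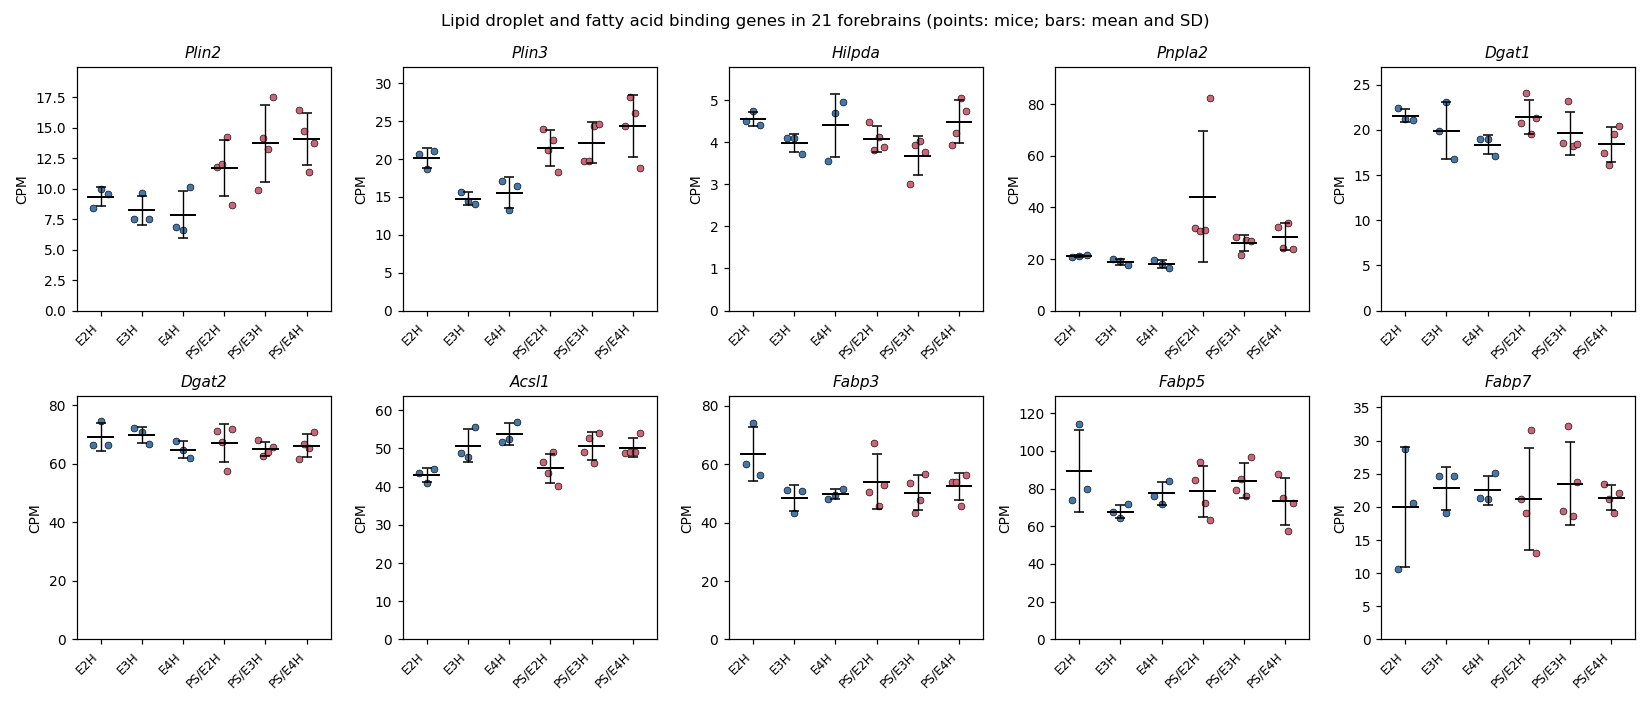
Each panel plots the CPM of 1 gene (vertical axis, from 0) in the 6 groups (horizontal axis), with a point for each mouse, a bar at the group mean and whiskers of 1 SD; parental mice are blue and PS19 mice red. All 12 PS19 mice are above all 9 parental mice for Pnpla2, 10 of 12 for Plin2 and 8 of 12 for Plin3, and the parental and PS19 ranges of the other 7 genes overlap.

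Plin2, Plin3 and Pnpla2 rose in PS19 mice, by 55.3%, 35.8% and 66.4% in a fit of all 21 mice with the APOE line as a term. The first and second are droplet coat proteins and the third starts the breakdown of stored triglyceride. These 3 were the only members of the 10 to pass (edgeR quasi-likelihood test, Benjamini-Hochberg adjusted p under 0.05 over 22863 genes); none fell and none reached 2-fold. Of all genes tested, 11.4% passed as higher and 9.63% as lower, and 2.24% and 0.367% did so at 2-fold or more. The median log2 fold change over the 10 genes was 0.0045, against -0.00603 over all genes tested.

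Plin2 was at 8.43, 9.93 and 9.59 CPM in the E2H mice, 7.52, 9.61 and 7.49 in the E3H mice, and 6.88, 6.62 and 10.1 in the E4H mice. In PS19 mice Plin2 was at 11.8, 12, 14.2 and 8.63 CPM with APOE2, at 9.86, 14.2, 13.3 and 17.5 with APOE3, and at 16.5, 14.7, 11.4 and 13.8 with APOE4. PS/E2H replicate 4 and PS/E3H replicate 1 were the PS19 mice within the parental range. The pooled log2 fold change was 0.63 (SE 0.12, adjusted p = 0.000433), from a mean of 8.46 ± 1.38 CPM (SD, n = 9) to 13.2 ± 2.57 (SD, n = 12).

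Plin3, a widely expressed perilipin that moves from cytosol to new droplets, was at 20.7, 18.7 and 21.1 CPM in E2H mice, at 15.7, 14.5 and 14.1 in E3H mice, and at 17.0, 13.2 and 16.4 in E4H mice. PS19 values were 24.0, 21.1, 22.5 and 18.3 CPM with APOE2, 19.8, 19.8, 24.4 and 24.6 with APOE3, and 24.3, 28.2, 26.1 and 18.8 with APOE4. The E2H mice were the highest of the parental mice and lay among the lower PS19 mice, while no E3H or E4H mouse reached the lowest PS19 value. The pooled log2 fold change was 0.44 (SE 0.09, adjusted p = 0.00108).

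Pnpla2 was at 20.9, 21.02 and 21.4 CPM in E2H mice, at 19.9, 19.1 and 17.8 in E3H mice, and at 19.5, 18.1 and 16.5 in E4H mice. In PS19 mice it was at 32.0, 30.9, 31.4 and 82.4 CPM with APOE2, at 28.5, 21.6, 27.4 and 27.2 with APOE3, and at 32.3, 24.3, 34.0 and 24.1 with APOE4. The PS19 and parental ranges did not overlap (21.6 to 82.4 against 16.5 to 21.4 CPM), which held in the same direction for 1.4% of all genes. The pooled log2 fold change was 0.73 (SE 0.15, adjusted p = 0.00107). PS/E2H replicate 4 was 82.4 CPM where the other PS/E2H mice were at 30.9 to 32.0, and without it the log2 fold change of Pnpla2 was 0.57 (adjusted p = 4.14e-06).

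The other 7 members had pooled log2 fold changes between -0.08 (Hilpda) and 0.02 (Fabp7). Their adjusted p ranged from 0.574 to 0.964, and the widest 95% interval was that of Fabp7, from -0.285 to 0.326. Neither acyltransferase passed. Dgat1, which makes triglyceride in the endoplasmic reticulum, was at 16.8 to 23.1 CPM in parental and 16.2 to 24.1 in PS19 mice, with an interval of -0.139 to 0.126. For Dgat2, which also works at the droplet surface, the ranges were 62.1 to 74.7 and 57.7 to 72.0 CPM and the interval was -0.129 to 0.0554. Acsl1 spanned 40.9 to 57.0 CPM in parental and 40.1 to 54.1 in PS19 mice, with an interval of -0.105 to 0.0794. Among the binding proteins, Fabp3 ranged over 43.2 to 74.1 and 43.2 to 67.3 CPM, Fabp5 over 64.4 to 114 and 57.6 to 96.8, and Fabp7 over 10.7 to 28.7 and 12.97 to 32.3. Hilpda was at 3.55 to 4.95 CPM in parental and 3.01 to 5.05 in PS19 mice.

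The 3 rises were called whichever mouse was left out (21 of 21 fits), with log2 fold changes of 0.58 to 0.69 for Plin2, 0.39 to 0.48 for Plin3 and 0.57 to 0.77 for Pnpla2. Without the 4 mice with more Ddx3y than Xist counts they were 0.64, 0.47 and 0.77, with adjusted p of 0.0022, 0.00318 and 0.00451.

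Markers of other cell types moved with the same comparison. The summed FPKM of 10 microglial markers was 197 to 267 in parental and 373 to 747 in PS19 mice, and 9 of the 10 passed as higher. For 8 astrocyte markers the sums were 501 to 609 and 783 to 1210, with 8 of 8 higher. For 7 oligodendrocyte markers they were 737 to 998 and 859 to 1360, with 5 of 7 higher, and for 8 neuronal markers 972 to 1070 and 843 to 1020, with 1 higher and 5 lower. No marker of these lists was at 0 in every mouse. Red blood cell markers summed to 235 to 950 FPKM in parental and 34.2 to 464 in PS19 mice, with 0 of 5 passing. The part of these shifts in the rise of Plin2, Plin3 and Pnpla2 was not tested, and in bulk tissue more cells of a type and more RNA per cell cannot be told apart.

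**Figure D2:**
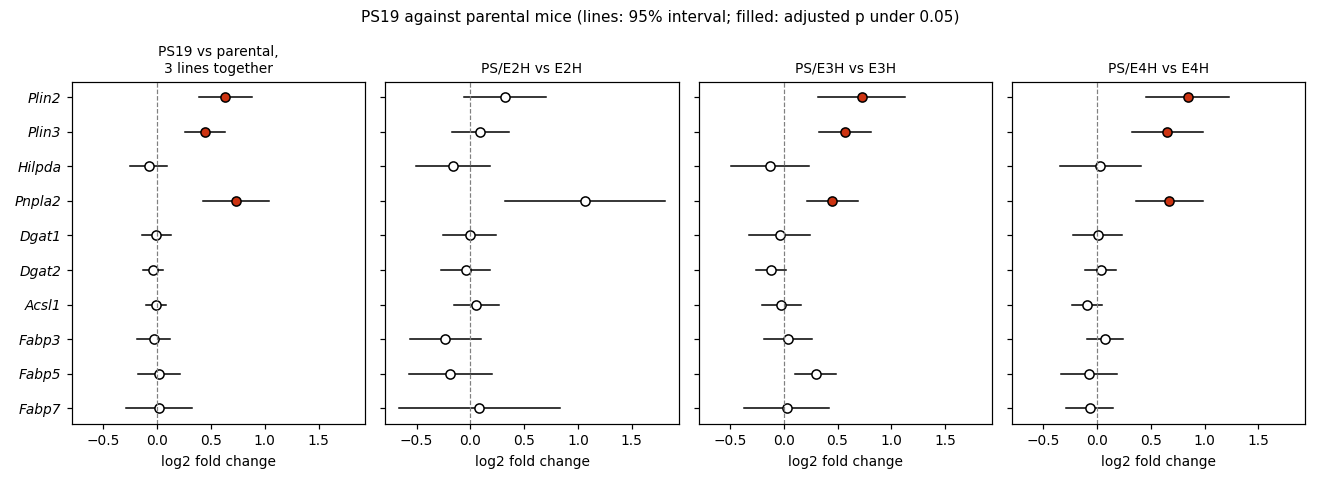
Points give the log2 fold change (horizontal axis) of each of the 10 genes (vertical axis) in PS19 against parental mice, over the 3 APOE lines together and within each line, with lines for the 95% interval and filled points where the adjusted p was under 0.05. Plin2, Plin3 and Pnpla2 are filled in 3 of the 4 panels, and none of the 10 in PS/E2H against E2H. In that panel only the interval of Pnpla2 lies wholly above 0 (0.321 to 1.81).

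Within the APOE4 line, PS/E4H mice exceeded E4H mice for the same 3 genes, with log2 fold changes of 0.84 for Plin2 (SE 0.18, adjusted p = 0.0114), 0.65 for Plin3 (SE 0.15, adjusted p = 0.0162) and 0.67 for Pnpla2 (SE 0.14, adjusted p = 0.0116). In this comparison 8.62% of genes passed as higher. The PS/E4H and E4H ranges of each of the 3 genes did not overlap, which held in that direction for 14.2% of all genes. Without E4H replicate 2 none of the 3 passed (adjusted p 0.0525 to 0.0818), and Plin2 was also lost without E4H replicate 1 (adjusted p = 0.0588). Pnpla2 was lost without the 4 mice with more Ddx3y than Xist counts (0.64, adjusted p = 0.0608).

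Within the APOE3 line, Plin2 was higher in PS/E3H than in E3H mice by 0.72 on the log2 scale (SE 0.18, adjusted p = 0.0466), Plin3 by 0.57 (SE 0.11, adjusted p = 0.0189) and Pnpla2 by 0.45 (SE 0.11, adjusted p = 0.0381), where 3.35% of all genes passed as higher. Fabp5, which was at 67.4, 64.4 and 71.6 CPM in E3H and 79.0, 85.2, 75.8 and 96.8 in PS/E3H mice, was the fourth member whose ranges did not overlap in this pair (10.9% of all genes). The log2 fold change of Fabp5 was 0.30 (SE 0.09, adjusted p = 0.0763), and it passed with DESeq2 in place of edgeR (adjusted p = 0.0193). The APOE3 calls changed with single mice. Without PS/E3H replicate 1 all 4 passed, Fabp5 included (adjusted p = 0.0358). Without E3H replicate 1, 2 or 3, or without PS/E3H replicate 4, none of the 10 passed, without PS/E3H replicate 3 Plin3 alone did, and without PS/E3H replicate 2 Plin2 was lost (adjusted p = 0.0863). The directions held in each of these fits, with Plin2 between 0.58 and 0.85, Plin3 between 0.52 and 0.62 and Pnpla2 between 0.40 and 0.53.

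Within the APOE2 line no member passed between PS/E2H and E2H mice, in a comparison where 0.669% of all genes passed as higher. Pnpla2 had a log2 fold change of 1.07 (SE 0.33, adjusted p = 0.247). Its 4 PS/E2H values were all above the 3 E2H values, as for 6.47% of all genes. Without PS/E2H replicate 4 the log2 fold change of Pnpla2 was 0.57 with an adjusted p of 0.0421, where its SD within PS/E2H mice had been 25.5 CPM around a mean of 44.2 with all 4. Plin2 (0.32, adjusted p = 0.562) and Plin3 (0.09, adjusted p = 0.864) did not pass. The E2H mice held the highest parental means of both, at 9.32 ± 0.784 and 20.2 ± 1.28 CPM (SD, n = 3). For Plin2 the E2H mice overlapped the E3H and E4H mice. The part of these parental levels in the PS/E2H against E2H differences was not tested. The number of genes called with higher expression was itself 138 in this line, 712 in the APOE3 line and 1797 in the APOE4 line.

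Whether the PS19 difference depended on the APOE line was tested with an interaction term for each pair of lines. Age at death was not a term, and among PS19 mice it cannot be told apart from APOE line. No gene passed in any of the 3 tests by edgeR (0%), with 1265, 847 and 2223 genes at an unadjusted p under 0.05. Plin3 had the lowest unadjusted p of the 3 risen genes. Its PS19 difference was smaller in the APOE2 than in the APOE3 line by -0.47 on the log2 scale (SE 0.16, adjusted p = 0.847), and larger in the APOE4 than in the APOE2 line by 0.56 (SE 0.19, adjusted p = 0.387). Both rest on the same PS/E2H and E2H mice. For Plin2 the APOE4 and APOE2 lines differed by 0.52 (95% interval -0.0275 to 1.07, adjusted p = 0.518). For Pnpla2 the corresponding value was -0.40 (-1.24 to 0.448, adjusted p = 0.781), and it was 0.10 without PS/E2H replicate 4. Fabp5 had unadjusted p of 0.0409 and 0.0314 against the APOE3 line for the APOE2 and APOE4 lines, and adjusted p of 0.847 and 1.

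**Figure D3:**
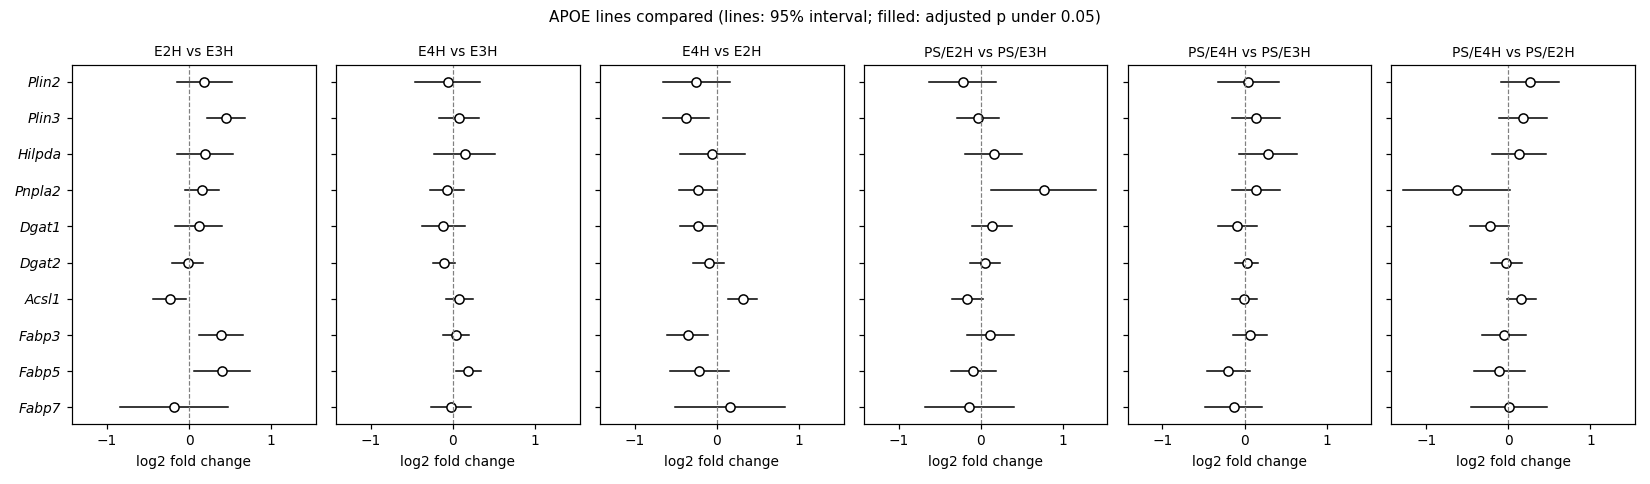
Points give the log2 fold change (horizontal axis) of each of the 10 genes (vertical axis) between APOE lines, in 3 comparisons of parental mice and 3 of PS19 mice, with lines for the 95% interval. No point is filled, since no member had an adjusted p under 0.05, and the furthest from 0 is Pnpla2 in PS/E2H against PS/E3H at 0.77.

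Between APOE lines no member passed in any of 6 comparisons, in which between 0.0197% and 0.216% of all genes passed in either direction. Comparisons that share a group are not independent. Among parental mice, E2H was compared with E3H (0.178% of genes passing), E4H with E3H (0.162%) and E4H with E2H (0.216%). Plin3 was higher in all 3 E2H mice than in any E3H mouse, with a log2 fold change of 0.45 (SE 0.10, adjusted p = 0.211), and passed with DESeq2 in place of edgeR (adjusted p = 0.0237). Fabp3 was at 60.0, 74.1 and 56.3 CPM in E2H mice against 51.2, 43.2 and 50.8 in E3H mice, a log2 fold change of 0.39 (SE 0.12, adjusted p = 0.248). Fabp5 was at 73.9, 114 and 79.7 CPM in E2H mice, all above the E3H mice given above. Its log2 fold change was 0.40 (SE 0.15, adjusted p = 0.305). E2H replicate 2 was the highest of these mice for both Fabp3 and Fabp5. With 1 mouse left out, the log2 fold change ranged from 0.265 to 0.475 for Fabp3. For Fabp5 the range was 0.179 to 0.521.

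Acsl1 was the member that lay lower in E2H mice. It was at 43.6, 40.9 and 44.6 CPM there, at 48.8, 47.7 and 55.6 in E3H mice and at 51.6, 52.4 and 57.0 in E4H mice. The E2H values lay below all 6 of the others, and the log2 fold changes were -0.24 for E2H against E3H (SE 0.09, adjusted p = 0.3) and 0.32 for E4H against E2H (SE 0.08, adjusted p = 0.318). Counted over the 10 genes, 5 were higher without overlap in E2H than in E3H mice (Plin3, Hilpda, Pnpla2, Fabp3 and Fabp5) and 1 was lower (Acsl1), against 12.7% and 10.7% of all genes. In E4H against E2H mice 1 was higher (Acsl1) and 4 were lower (Plin3, Pnpla2, Dgat1 and Fabp3), against 10.7% and 10.7%; the same E2H mice enter both counts. At an unadjusted p under 0.05 there were 4 of the 10 members and 2933 of all 20797 genes tested for E2H against E3H. For E4H against E2H there were 5 of the 10 and 2570 of 20804 genes. For E4H against E3H there were Fabp5 alone of the 10 and 1397 of 20958 genes. Fabp5 had a log2 fold change of 0.19 there (adjusted p = 0.613) and was higher without overlap, as were 6.52% of genes.

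Among PS19 mice the APOE differences of the 10 genes were as follows, and age at death cannot be told apart from APOE line in them. In PS/E2H against PS/E3H mice (0.113% of genes passing), Pnpla2 had a log2 fold change of 0.77 (SE 0.29, adjusted p = 0.406), which was 0.28 without PS/E2H replicate 4. The ranges of PS/E2H and PS/E3H did not overlap for Pnpla2, against 2.17% of all genes in that direction. In PS/E4H against PS/E3H mice (0.0197%) no member had an unadjusted p under 0.05, and the log2 fold changes ran from -0.20 (Fabp5) to 0.29 (Hilpda). In PS/E4H against PS/E2H mice (0.119%) Pnpla2 was at -0.63 (SE 0.30, adjusted p = 0.422), and at -0.14 without PS/E2H replicate 4. Acsl1, low in E2H mice, was at 46.3, 43.4, 49.1 and 40.1 CPM in PS/E2H mice, which overlapped the 46.1 to 54.1 CPM of PS/E3H mice (log2 fold change -0.16, adjusted p = 0.456).

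Ordered by mean CPM, Plin2 ran PS/E4H, PS/E3H, PS/E2H, E2H, E3H and E4H, and each neighbour in that order overlapped the next. Plin3 ran PS/E4H, PS/E3H, PS/E2H, E2H, E4H and E3H, with E2H and E4H the only neighbours whose mice did not overlap (adjusted p = 0.363). Pnpla2 ran PS/E2H, PS/E4H, PS/E3H, E2H, E3H and E4H, with gaps between PS/E3H and E2H and between E2H and E3H (adjusted p of the latter 0.475). For the other 7 genes all 5 pairs of neighbours overlapped. Spread within groups was widest for Pnpla2 in PS/E2H mice (coefficient of variation 57.7%) and for Fabp7 in E2H (45.2%) and PS/E2H mice (36.5%). Fabp7 was at 10.7, 28.7 and 20.7 CPM in E2H and at 21.2, 19.1, 31.6 and 12.97 in PS/E2H mice. Its 95% interval in PS/E2H against E2H was correspondingly wide, from -0.666 to 0.83. In the pooled fit the interval of Fabp7 (-0.285 to 0.326) lay below the log2 fold change of Plin3 (0.44).

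**Figure D4:**
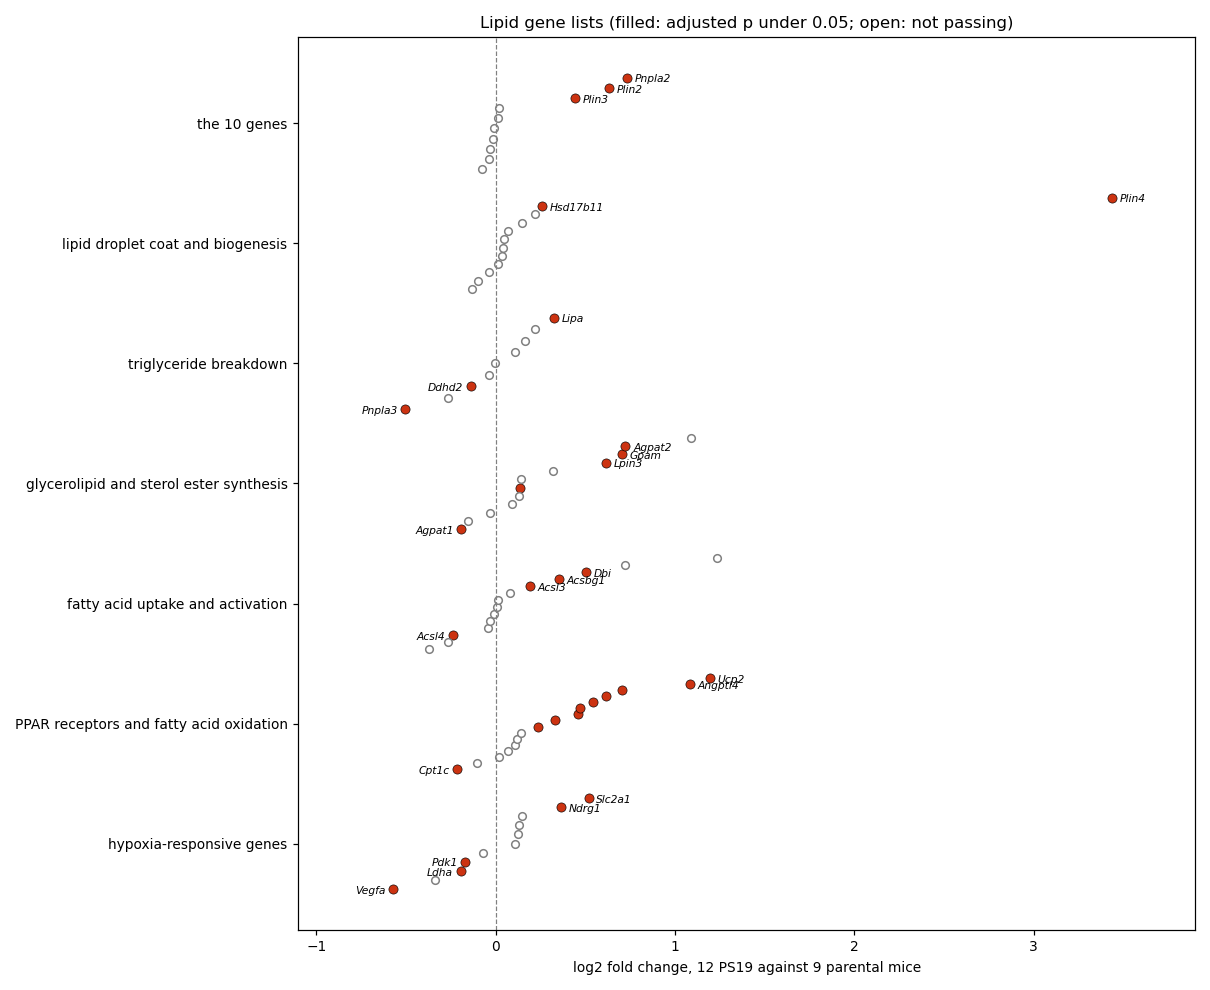
Each point is a gene, at its log2 fold change in 12 PS19 against 9 parental mice (horizontal axis), in rows for the 10 genes and for 6 other lipid or hypoxia gene lists; filled points had an adjusted p under 0.05 and open points did not. Plin4 lies furthest right at 3.44, and the oxidation list holds 9 filled points above 0 and 1 below.

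The rest of the pathway was described in the same pooled comparison, in which 11.4% of all genes passed as higher and 9.63% as lower; each list is small and its shares are given beside its counts, with no test between list and genes. Of 12 tested genes of the droplet coat and droplet formation, 2 rose (16.7%) and none fell. Plin4, a perilipin of adipose tissue and muscle, was the member that rose most. It was at 2.06 to 10.97 CPM (median 2.89) in parental and 12.8 to 109 CPM (median 37.5) in PS19 mice, with a log2 fold change of 3.44 (SE 0.35, adjusted p = 2.64e-07). The ranges did not overlap, and within lines the log2 fold changes of Plin4 were 3.21 for APOE2 (adjusted p = 0.0475), 3.57 for APOE3 (adjusted p = 0.0048) and 3.53 for APOE4 (adjusted p = 0.00123). The summed FPKM of 5 adipocyte markers (Adipoq, Lep, Cidec, Plin1 and Retn) was 0.152 to 0.489 in parental and 0.0225 to 0.410 in PS19 mice. Adipoq was at 0 in every E2H and every E4H mouse, Plin1 in every E4H mouse and Lep in every PS/E2H mouse. In no PS19 group was Adipoq at 0 in every mouse. Hsd17b11, a droplet-associated dehydrogenase, rose by 0.26 (adjusted p = 0.00117).

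Of 9 tested genes of triglyceride breakdown, 1 was higher (11.1%, near the share of all genes) and 2 were lower (22.2%). Lipa, the lysosomal acid lipase, rose by 0.33 (adjusted p = 0.000646). Pnpla3, a relative of Pnpla2, fell by 0.50 (adjusted p = 0.0473), and the phospholipase Ddhd2 fell by 0.14 (adjusted p = 0.0467). Abhd5, the coactivator of Pnpla2, had a log2 fold change of -0.00317 (adjusted p = 0.981); it and G0s2, an inhibitor of Pnpla2 at 0.11 (adjusted p = 0.691), were named after their values were seen.

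Of 12 tested genes of glycerolipid and sterol ester synthesis, 4 rose (33.3%) and 1 fell (8.33%). Agpat2 (0.72, adjusted p = 0.00213), Gpam (0.70, adjusted p = 0.000174) and Lpin3 (0.61, adjusted p = 0.0227), which act before the diacylglycerol acyltransferases, rose. Lpin3 was low, at 0.557 to 1.21 CPM in parental and 0.689 to 2.24 in PS19 mice, and these ranges overlapped. Agpat1 fell by 0.19 (adjusted p = 0.00612). Of 14 genes of fatty acid uptake and activation, 3 rose (21.4%) and 1 fell (7.14%). Dbi, the acyl-CoA binding protein, rose by 0.50 (adjusted p = 0.000394), Acsbg1 by 0.35 (adjusted p = 0.000103) and Acsl3 by 0.19 (adjusted p = 0.00684), and Acsl4 fell by 0.24 (adjusted p = 0.000705). Dbi and Acsbg1 are astrocyte-rich genes. The astrocyte marker sums given above moved in the same direction, as did the microglial and oligodendrocyte sums. The part of these marker shifts in the rises of Dbi and Acsbg1 was not tested.

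The list of PPAR receptors and fatty acid oxidation genes had the highest share of risen genes among these lists, 9 of 16 (56.2%). In it 1 gene was lower (6.25%) and the median log2 fold change was 0.28. Ucp2, a mitochondrial carrier abundant in microglia, was at 20.2 to 31.4 CPM in parental and 44.2 to 78.3 in PS19 mice and rose by 1.19 (adjusted p = 5.08e-09). Angptl4, a secreted inhibitor of lipoprotein lipase, was at 1.42 to 2.84 and 2.88 to 8.78 CPM and rose by 1.08 (adjusted p = 5.03e-05). The neuronal carnitine palmitoyltransferase Cpt1c fell by 0.21 (adjusted p = 0.00173). The part of the marker shifts given above in these changes was not tested. Hypoxia-responsive genes, the class to which Hilpda belongs, split: 2 of 11 rose (18.2%; Slc2a1 by 0.52 and Ndrg1 by 0.37, adjusted p 4.26e-05 and 0.00333) and 3 fell (27.3%; Vegfa by 0.57, Ldha by 0.19 and Pdk1 by 0.17, adjusted p 0.00022, 0.024 and 0.0298).

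**Figure D5:**
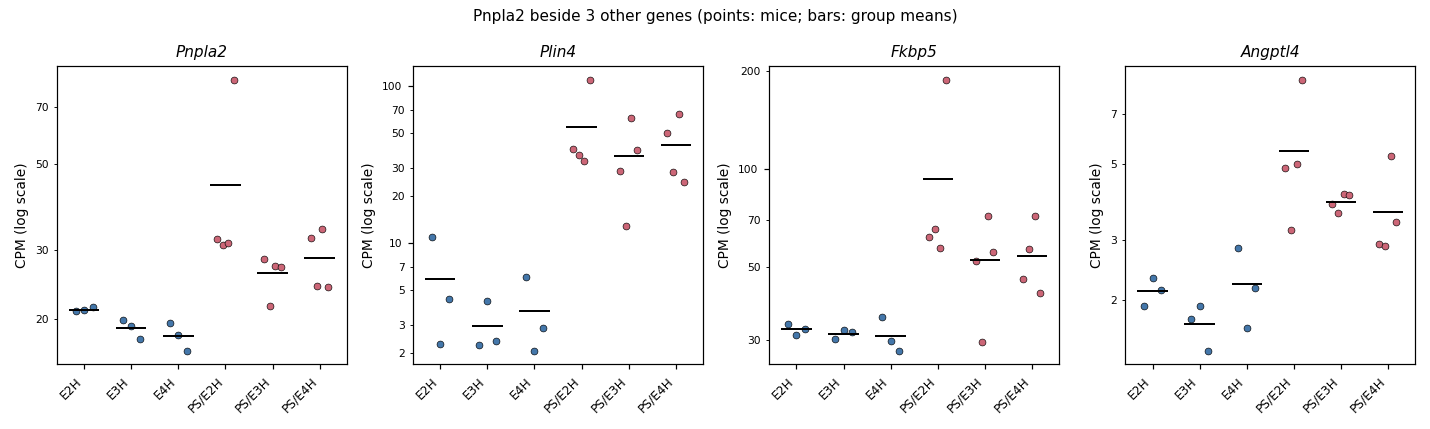
Each panel plots the CPM (log scale) of Pnpla2, Plin4, Fkbp5 or Angptl4 in the 6 groups, with a point for each mouse and a bar at the group mean; parental mice are blue and PS19 mice red. The highest point of each panel is PS/E2H replicate 4, at 82.4, 109, 188 and 8.78 CPM.

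The gene whose level followed that of Pnpla2 most closely over the 21 mice, among 22827 genes, was Fkbp5, a co-chaperone of the glucocorticoid receptor (Pearson r of log2(CPM + 0.5) = 0.946), followed by Maff (0.935) and the lysophosphatidylcholine carrier Mfsd2a (0.933). These points share tau genotype, and PS/E2H replicate 4 is extreme in each. For deviations from the group means the r values were 0.870, 0.877 and 0.873, with PS/E2H replicate 4 still included. How far these r values rest on that mouse was not tested. Fkbp5 was at 27.7 to 35.1 CPM in parental mice and 29.6 to 188 in PS19 mice. PS/E3H replicate 2 was the lowest PS19 mouse for Pnpla2 (21.6 CPM), Fkbp5 (29.6) and Plin4 (12.8). For Plin2 the closest genes were Lbh (0.950), Sfrp5 (0.944) and Ctdsp1 (0.942), and for Plin3 they were Dcxr (0.894), S100b (0.889) and Ctnna1 (0.887), of which S100b is an astrocyte gene.

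Among the 10 genes, Plin2 and Plin3 had an r of 0.766 over the 21 mice and 0.368 for deviations from group means, and Plin2 and Pnpla2 had 0.278 and -0.517. The mouse with the most Pnpla2 RNA, PS/E2H replicate 4, had the least Plin2 (8.63 CPM) and the least Plin3 (18.3 CPM) of the PS19 mice. Fabp3 and Fabp5 had 0.650 and 0.671. These are descriptions over mice of 6 groups, with no test. Mice of a group share genotype, and whether they share dissection or sequencing batches is not given in the sources used here.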

How the data were processed

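Per the labels and the study's methods, RNA came from frozen forebrains, libraries were poly(A)-selected and stranded, and paired reads were sequenced on an Illumina NovaSeq. The authors trimmed reads with cutadapt, aligned them with HISAT2 to the mouse genome (GRCm38.p5 in the submitters' processing notes) and quantified transcripts with StringTie. The authors deposited raw counts per gene, whole numbers with no normalization, for 55401 genes, and FPKM values (scaled by the authors for length and depth) for 37538. Tool versions, how counts were derived and whether strand was used are not given in the sources used here. Reads shared between genes stay where that counting put them. All columns were mapped to a mouse by its label.

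Counts were fitted with edgeR 4.0.16 in R 4.3.3 (TMM, filterByExpr with minimum count 10 and total 15, quasi-likelihood test). There were 13 comparisons: PS19 against parental mice with APOE line as a term, 6 between APOE lines, 3 within lines and 3 interactions. A gene passed at Benjamini-Hochberg adjusted p under 0.05 over all genes tested; the study's own limit of 2-fold is given beside it. Standard errors are the log2 fold change over the root of the F statistic. Nothing in the labels says that mice of a group came from separate litters. FPKM was tested with limma 3.58.1 on log2(FPKM + 1), as an alternative beside DESeq2 1.42.0. The fits were tested on simulated counts. Symbols and positions are from GENCODE M21 (GRCm38, 55141 identifiers named); promoters are from RefSeq.

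The 10 genes, the pathway and marker lists and the tests were chosen with earlier results of these data known. Named were the 10 genes, up to 3 passing genes per direction of each pathway list, and the 3 genes most correlated with each member. 1 gene that this rule names is not reported here. Python 3.11.15 with pandas 2.3.3 and matplotlib 3.10.9 made the tables and figures.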

Additional observations from a re-analysis of the deposited data

Results flagged for a closer look

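Each group of 4 PS19 mice was examined for 1 mouse far from the other 3, by the gap to its nearest neighbour over the group's range, for 33 genes including the 10 members. Of 96 groups, 10 held such a mouse. The limit used is one that about 1 in 20 independent groups would pass by chance. The 96 groups are genes measured in the same 12 mice, so these shares cannot be compared.

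Among the members, Pnpla2 was at 82.4 CPM in PS/E2H replicate 4 against 30.9 to 32.0 in the other PS/E2H mice. Acsl1 was at 54.0 CPM in PS/E4H replicate 4 against 48.8 to 49.0, and Dgat1 at 23.2 CPM in PS/E3H replicate 2 against 18.3 to 18.5. PS/E2H replicate 4 was also apart for Plin4, at 109 CPM against 33.3 to 39.9, and for Slc2a1, at 170 CPM against 118 to 120. Its summed microglial marker FPKM was 402, the lowest of the PS/E2H mice, and its summed red blood cell marker FPKM was 34.2, the lowest of all 21 mice. The part of these marker levels in the values above was not tested.

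Of the other genes, Hsd17b11 was at 55.1 CPM in PS/E2H replicate 3 against 53.4 to 53.6, and Dbi at 144 CPM in PS/E2H replicate 1 against 133 to 135. In PS/E4H mice, Acsbg1 was at 182 CPM in replicate 4 against 219 to 224, Acsl3 at 286 CPM in replicate 3 against 234 to 242, and Vegfa at 33.3 CPM in replicate 2 against 39.3 to 39.8.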

How the results depend on the processing

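The count of members passing in PS19 against parental mice was 3 under every alternative except 2: it was 0 at 2-fold or more, and 0 when only the 4 mice with more Ddx3y than Xist counts were kept. It was 3 in all fits that left out 1 mouse. In PS/E4H against E4H mice (3 passing) it was 0 at 2-fold, 0 for limma on log2(FPKM + 1) with no filter, 0 in those 4 mice alone, and 0 to 3 when 1 mouse was left out; without the 4 mice, an alternative chosen after seeing the data, it was 2. In PS/E3H against E3H mice (3 passing) it was 4 with DESeq2 (Fabp5 added), 3 with RLE size factors, 2 in 1 fit over all 6 groups, 1 with no filter on low counts, 1 for limma on log2(FPKM + 1) and on log2(FPKM + 0.1), 0 for the former with no filter, 0 at 2-fold, and 0 to 4 when 1 mouse was left out. In PS/E2H against E2H mice (0 passing) it was 1 in 1 fit over all 6 groups, which lost Pnpla2 in the APOE3 and APOE4 lines (adjusted p 0.349 and 0.0857), and 0 to 1 when 1 mouse was left out, and for E2H against E3H it was 1 with DESeq2. In the other 5 APOE comparisons and the 3 interactions it was 0 throughout, also with 1 mouse left out.

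The replicate numbers did not pair the mice: same-numbered mice correlated by -0.223 to 0.251 over 48 pairs, 8 of them over 0.1, and 6 of 21 mice were closest to their own number. With the replicate block, members passing were 0 in PS/E3H against E3H, 1 in PS/E2H against E2H (Pnpla2, 0.57, adjusted p = 0.0301) and 2 in PS/E4H against E4H mice; it changed no other count of members.

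Of 2430 values of single members under alternatives, 163 changed sign, over 54 of 130 gene and comparison pairs, none of them passing with or without the change. Of these, 146 moved by no more than 1 SE, as for Fabp7 in PS/E2H against E2H (-0.223 to 0.445 with 1 mouse left out) and Plin2 in E4H against E3H (-0.283 to 0.067). The 17 that moved by more follow. In the 4 mice alone, these were Fabp3 (0.097), Fabp7 (-0.135), Dgat1 (0.147) and Dgat2 (0.098) in PS19 against parental mice, Hilpda (-0.192) in PS/E4H against E4H and Plin3 (-0.00651) in PS/E4H against PS/E2H. With 1 mouse left out, Fabp7 ranged from -0.543 to 0.119 in E2H against E3H and from -0.141 to 0.519 in E4H against E2H (turning without E2H replicate 1), and Fabp5 from -0.334 to 0.00643 in E4H against E2H and from -0.307 to 0.0401 in PS/E2H against E2H (without E2H replicate 2). Dgat1 ranged from -0.230 to 0.0051 in E4H against E3H (without E3H replicate 2), and Fabp7 from -0.222 to 0.0633 in PS/E4H against PS/E3H and from -0.162 to 0.122 in PS/E3H against E3H (without PS/E3H replicate 2). Fabp3 ranged from -0.0133 to 0.194 in PS/E2H against PS/E3H, where it was also -0.0133 without the 4 mice, and from -0.135 to 0.0746 in PS/E4H against PS/E2H (without PS/E2H replicate 2). The Pnpla2 interaction of APOE4 and APOE2 ranged from -0.531 to 0.0989 (without PS/E2H replicate 4). The 4 mice fall in E4H, PS/E2H and PS/E4H, so the fit on them alone could not be made for other comparisons.

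Genes passing numbered 4806 in PS19 against parental mice and 515 to 5492 under the alternatives, 3252 in PS/E4H against E4H with 1189 to 3402 when 1 mouse was left out, 1141 in PS/E3H against E3H with 113 to 2584, and 155 in PS/E2H against E2H with 31 to 142. The causes of these changes were not tested.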

Other observations

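Fabp1, the liver fatty acid binding protein, was counted in 4 parental mice (19 and 32 counts in E3H replicates 1 and 2, and 16 and 18 in E4H replicates 1 and 3) and in none of the 12 PS19 mice. It was the 1 gene lower, with none higher, of the 2 tested other fatty acid binding proteins in the pooled fit, on counts in 4 of 21 mice. Fabp6 and Fabp9 had no counts in any mouse. Of the other binding proteins, Fabp4, the adipocyte type, had a log2 fold change of 0.18 (SE 0.54, adjusted p = 0.866) and was named after its values were seen.

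Gpam, which catalyses the first step of glycerolipid synthesis, was at 24.9 to 70.7 CPM in parental and 70.3 to 123 in PS19 mice. Agpat2, an enzyme of the next step, was at 0.717 to 1.78 and 1.60 to 2.73 CPM. Agpat1, which fell as given above, was at 95.9 to 113 and 76.7 to 106 CPM. In FPKM, Agpat1 was at 23.3 to 33.1 over all mice and Agpat2 at 0.314 to 1.20.

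In PS19 against parental mice 11.4% of all genes passed as higher and 9.63% as lower, and the other marker lists are too small to compare with these shares. Of these lists, 1 of 4 oligodendrocyte precursor genes, 1 of 6 pericyte and smooth muscle genes, 2 of 6 choroid plexus genes and 3 of 5 fibroblast genes passed as higher and none as lower. Of 7 endothelial genes 3 were higher and 1 lower, of 4 pituitary genes 1 was lower, and the 1 adipocyte gene tested did not pass. Of 6 cerebellar genes, a list added after seeing the data, 1 was lower, and their summed FPKM was highest in PS/E2H replicate 4 (13.3) with 12.9 next.

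The genes closest to the members that did not pass, by Pearson r over the 21 mice, were Gm47102 for Hilpda (0.725), Mill2 for Acsl1 (0.824), Hsbp1 for Fabp3 (0.885), Cmc2 for Fabp5 (0.763), Gjb2 for Fabp7 (0.789), Ndufaf6 for Dgat1 (0.757) and March9 for Dgat2 (0.808). None of these closest genes passed in the pooled comparison.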
